A study of Mus musculus with 6 samples.

Results

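The HOX genes are the homeobox genes that lie in 4 clusters, named A to D, and that are numbered along each cluster by paralogue, from 1 to 13. They were taken as the protein-coding genes of the count table whose symbol is Hox, a cluster letter and a number, which gave 39 genes of the 35275 rows. RNA of the spinal cord was measured by poly(A) RNA-seq in 3 Sox2 cKO mice of genotype mGfap-Cre:Sox2fl/fl and in 3 Ctrl mice labelled mGfap-Cre:Sox2+/+, all on the C57BL/6 strain. In the mGfap-Cre line, the mouse Gfap promoter drives Cre recombinase, and the study describes its activity as targeted to astrocytes, so Sox2 is to be lost from these cells only while all cells of the cord contribute RNA. The labels give the age as 90 days, whereas the design text and the extraction protocol give 80 days. The design text describes the Ctrl mice as carrying either the Cre or the floxed alleles, and the study's methods describe them as floxed littermates without Cre. Both sexes were used in each group. The deposited columns are numbered 1 to 6 and match no sample name, so each library is called here by its group and number. Libraries 2, 4 and 6 were taken as Ctrl and 1, 3 and 5 as Sox2 cKO from the mouse numbers of a blot in the study, not from the labels.

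HOX proteins are transcription factors that bind DNA together with partners of the TALE class such as PBX and MEIS. In the embryo they are switched on in the order of their position in the cluster, so that low paralogue numbers mark the hindbrain and the cervical cord, middle numbers the brachial and thoracic cord, and numbers from 10 upward the lumbar and sacral cord. Neurons and glia of the adult cord keep part of this code. In RNA of whole tissue, fewer cells that express a gene and less RNA of that gene in each cell cannot be told apart.

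The libraries held between 21507911 and 28392184 counted reads, of which HOX genes took between 0.0820% and 0.0991%. Sox2, the deleted gene, lay between 14.8 and 29.5 CPM (counts relative to the TMM-scaled library size) in the Ctrl libraries against 2.69 to 3.16 CPM in those of Sox2 cKO. Its log2 fold change, Sox2 cKO against Ctrl here and throughout, was -2.86 ± 0.24 (SE), with an adjusted p of 0.000956 in edgeR's quasi-likelihood test with Benjamini-Hochberg adjustment over all genes tested. Ctrl library 2 stood apart from its group. Its chi-square per degree of freedom over all genes, a measure of how far the counts of a pair of libraries differ, was 26.9 and 31.6 against Ctrl libraries 4 and 6, which were at 10.7 to each other, and 30.1, 15.7 and 11.6 against Sox2 cKO libraries 1, 3 and 5. Without it edgeR called 6119 genes in place of 3970 and the median log2 fold change of the HOX genes was 0.22 in place of 0.20. The label of the tissue was checked against marker genes. All 7 spinal interneuron markers and all 5 spinal motor neuron markers were detected, with sums of 157 to 198 FPKM and 86.2 to 99.7 FPKM over the libraries. FPKM relates the count to gene length and to all counted reads, so that genes can be compared by level. The 9 forebrain markers summed to between 3.26 and 4.39 FPKM, and Otx1 was listed at 0 in every library.

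The HOX profile rose from paralogue 1 to paralogue 8 and ended at paralogue 10. Summed over the clusters, the level per length was between 0.716 and 1.39 FPKM for paralogue 1 and between 18.6 and 28.6 FPKM for paralogue 4 over the 6 libraries. It was highest for paralogue 8, at 171 to 204 FPKM, which made up 47.4% ± 1.01 of all HOX FPKM in Ctrl and 45.3% ± 1.55 in Sox2 cKO (SD, n = 3 each). Paralogue 9 summed to 32.5 to 39.9 FPKM, paralogue 10 to 0.531 to 1.05 FPKM and paralogues 11 to 13 each to at most 0.0462 FPKM. Transcripts of the numbers that mark the brachial and thoracic cord were thus high, and those of the lumbar and sacral numbers were low or at 0, in tissue that the design text describes as the whole spinal cord. Whether all levels of the cord were in the tissue taken was not tested.

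**Figure D1:**
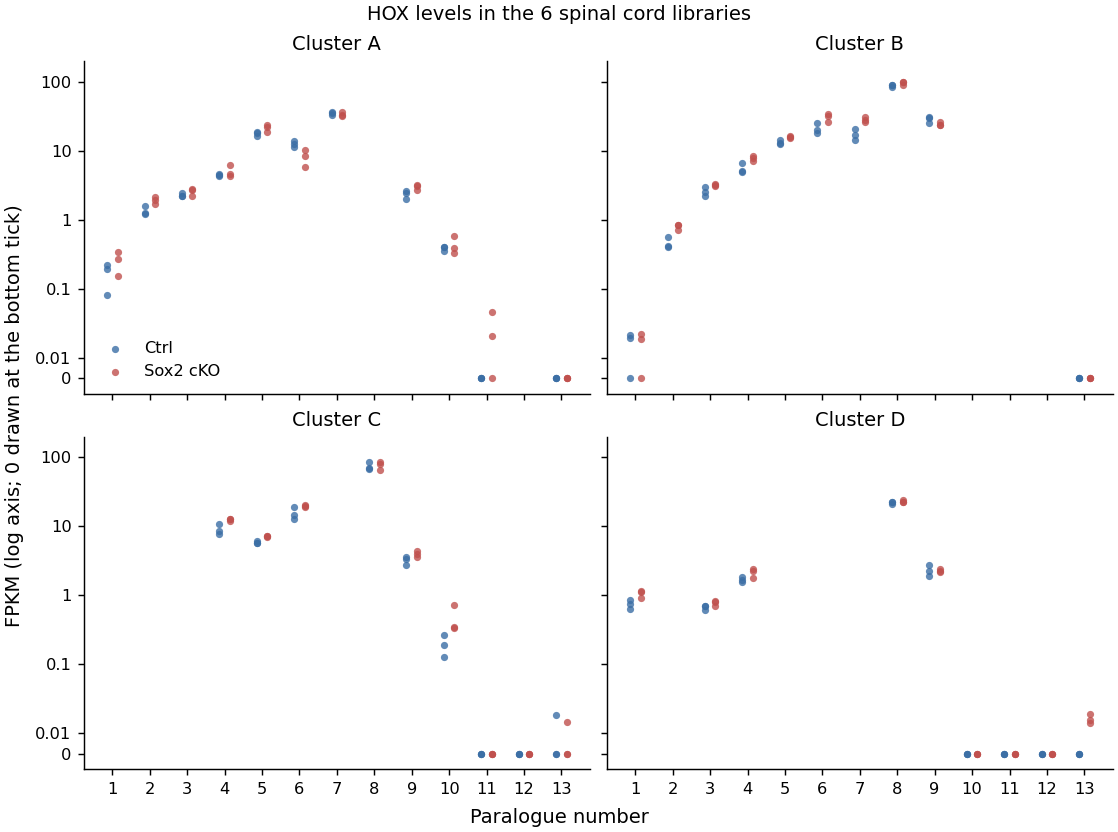
Level of every HOX gene in each of the 6 libraries, by paralogue number (horizontal axis) and cluster (panels), in FPKM on a log axis with 0 drawn at the bottom tick; each point is 1 library, blue for Ctrl and red for Sox2 cKO. In each cluster the level is highest at paralogue 7 or 8 and is near 0 from paralogue 11 upward, in both groups.

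Hoxb8 was the highest member, at 90.7, 83.3 and 90.4 FPKM in the Ctrl group (libraries 2, 4, 6, in this order throughout) and 100.6, 100.4 and 90.8 FPKM in the Sox2 cKO group (libraries 1, 3, 5). Hoxc8 came next, at 84.9, 66.6 and 70.9 FPKM in Ctrl and 78.8, 64.7 and 85.8 FPKM in Sox2 cKO. Both genes are known from motor columns of the brachial and thoracic cord, and their Ctrl libraries overlapped, so their order is not resolved. Hoxa7, at 35.4 ± 1.69 FPKM in Ctrl (SD, n = 3), and Hoxb9, at 28.9 ± 2.88 FPKM, followed with no overlap to each other or to their neighbours in the order. From the fifth to the eleventh place came Hoxd8, Hoxb6, Hoxa5, Hoxb7, Hoxc6, Hoxb5 and Hoxa6, between 21.9 and 12.6 FPKM on average. In each of the first 6 of them the Ctrl libraries overlapped with those of the next in the order, so their sequence is not resolved, while Hoxa6 lay apart from Hoxc4, which followed at 9.12 ± 1.59 FPKM.

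Cluster B gave the largest part of the signal, 45.6% ± 0.733 of all HOX FPKM in Ctrl (SD, n = 3), followed by cluster C with 27.7% ± 1.57, cluster A with 19.7% ± 1.34 and cluster D with 7.04% ± 0.323. The highest members of clusters A and D were Hoxa7 and Hoxd8. At the anterior end, Hoxd1 was the highest paralogue 1 gene, at 0.749 ± 0.113 FPKM in Ctrl, and Hoxb1, which patterns a single segment of the hindbrain, had 4 counts over all 6 libraries. Hoxa2, at 1.35 ± 0.213 FPKM, was above Hoxb2 among the paralogue 2 genes, and Hoxb3, at 2.57 ± 0.424 FPKM, and Hoxa3, at 2.29 ± 0.119 FPKM, overlapped as the highest of paralogue 3, so their order is not resolved.

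The step down at the posterior end fell between neighbouring genes. The level fell from Hoxc8 to Hoxc9 by a factor of 21.1, from Hoxa7 to Hoxa9 by 13.05, from Hoxd8 to Hoxd9 by 9.84 and from Hoxb8 to Hoxb9 by 3.47, as ratios of the mean FPKM over the 6 libraries. Hoxa10 was 6.51 times below Hoxa9, with a gap of 107 bases between the genes, and Hoxc10 was 10.9 times below Hoxc9. Hoxd9 had 708 counts in all, and Hoxd10, which specifies lumbar motor neurons and lies 2621 bases away, had 0. Of the 12 genes of paralogues 10 to 13, 7 had no count in any library: Hoxa13, Hoxb13, Hoxc11, Hoxc12, Hoxd10, Hoxd11 and Hoxd12. A count of 0 allows a level of up to 0.106 to 0.139 CPM in a library (3 counts, counting error only). Hoxa11, Hoxc13 and Hoxd13 had 4, 2 and 3 counts in all.

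The starts of 4 genes are shown because they stand on the 2 sides of this step, or rose in Sox2 cKO. Promoter windows of RefSeq (GRCm38.p6) were matched for 22 of the 39 genes, in 24 windows, and the 250 bases before the start are given 5′ to 3′ in lower case for windows that hold no annotated exon. Capitals mark the letters TATAAA (the TATA box), CCAAT, TGATNNAT (a site of HOX with PBX proteins) and CAAAG (the SOX2 site that the study used), each on both strands.
Hoxb8 (chr11:96281655-96281904, + strand): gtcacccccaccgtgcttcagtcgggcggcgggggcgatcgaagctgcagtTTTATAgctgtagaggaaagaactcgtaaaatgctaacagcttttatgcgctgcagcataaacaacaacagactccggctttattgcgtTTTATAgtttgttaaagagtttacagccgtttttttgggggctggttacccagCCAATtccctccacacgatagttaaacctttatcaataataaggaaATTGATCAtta
Hoxd8 (chr2:74704365-74704614, + strand): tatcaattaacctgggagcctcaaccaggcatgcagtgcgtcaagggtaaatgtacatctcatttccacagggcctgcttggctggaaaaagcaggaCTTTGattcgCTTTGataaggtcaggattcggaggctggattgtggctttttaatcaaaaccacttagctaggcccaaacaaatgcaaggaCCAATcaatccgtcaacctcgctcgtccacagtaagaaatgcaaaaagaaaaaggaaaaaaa
Hoxd10 (chr2:74691641-74691890, + strand): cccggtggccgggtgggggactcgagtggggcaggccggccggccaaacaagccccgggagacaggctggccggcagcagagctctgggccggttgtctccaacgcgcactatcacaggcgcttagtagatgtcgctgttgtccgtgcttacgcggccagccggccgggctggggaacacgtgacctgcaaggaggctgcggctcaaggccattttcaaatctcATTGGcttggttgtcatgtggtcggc
Hoxb4 (chr11:96318017-96318266, + strand): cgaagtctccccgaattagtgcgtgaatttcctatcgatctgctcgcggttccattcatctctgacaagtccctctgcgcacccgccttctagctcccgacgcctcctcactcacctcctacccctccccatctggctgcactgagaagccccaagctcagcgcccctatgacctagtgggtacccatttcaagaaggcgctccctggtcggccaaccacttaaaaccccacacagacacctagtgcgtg
Hoxb8, the highest member, held TATAAA at 2 places, CCAAT at 1 and TGATNNAT at 1. Hoxd8 held CAAAG at 2 places and CCAAT at 1, Hoxd10 held CCAAT at 1, and Hoxb4 held none of the 4. Among the 24 HOX windows, 4 held TATAAA, 14 CCAAT, 4 TGATNNAT and 15 CAAAG. The shares among all 32851 windows of this length were 12.4%, 33.8%, 7.68% and 48.6%. HOX windows had a median of 12.5 CG pairs, against 6 in all windows. In G and C, the Hoxd10 window was at 65.6% and those of Hoxd8 and Hoxb8 at 44.4% each. The median was 58.6% for the HOX windows and 52.4% for all windows. G and C did not separate genes with and without counts. Hoxa5 and Hoxa6, which had counts, were at 63.6% and 65.2%, and the 2 windows of Hoxd11, which had none, at 44.8% and 60.4%.

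The groups were then compared to ask whether loss of Sox2 from astrocytes went with a change of the HOX code. Of the 39 members, 28 passed the filter on low counts and were tested. Of these, 5 rose in Sox2 cKO (Hoxb2, Hoxb4, Hoxb6, Hoxb7 and Hoxc4) and 2 fell (Hoxa6 and Hoxb9), at an adjusted p below 0.05 in edgeR. These 7 are 25.0% of the members tested, and 24.6% of all genes tested were called (12.2% higher and 12.4% lower), so the share of HOX genes called lay close to the background. Groups whose libraries did not overlap in CPM were found for 13 members, or 46.4%, against 44.7% of all genes tested. The 11 members not tested were Hoxb1, Hoxa11, Hoxc13, Hoxd13 and the 7 with no count.

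Hoxb7, on chromosome 11 of mm10 from 96286623 to 96290162, is expressed in the thoracic cord and had the smallest adjusted p of the members. Ctrl libraries 2, 4 and 6 had 26.5, 19.2 and 22.8 CPM, and Sox2 cKO libraries 1, 3 and 5 had 37.1, 35.4 and 33.2 CPM. Every Sox2 cKO library was above every Ctrl library, with a log2 fold change of 0.63 ± 0.12 (SE) and an adjusted p of 0.0127 in edgeR. Its neighbour Hoxb6 (96292476 to 96301569) was at 50.1, 40.8 and 37.9 CPM in Ctrl and 59.6, 64.4 and 50.5 CPM in Sox2 cKO. The gap between Ctrl library 2 and Sox2 cKO library 5 was small, and the log2 fold change was 0.44 ± 0.12 with an adjusted p of 0.0291 in edgeR.

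Hoxb4 (96318267 to 96321638), a gene of the cervical cord, was at 17.2, 13.7 and 13.4 CPM in Ctrl and 20.2, 19.3 and 17.8 CPM in Sox2 cKO. Its log2 fold change was 0.37 ± 0.12, with an adjusted p of 0.0480 in edgeR. Hoxc4, on chromosome 15 from 103018934 to 103036852, is the paralogue of Hoxb4 in cluster C. It was at 23.3, 19.0 and 17.7 CPM in Ctrl and 25.7, 26.1 and 25.2 CPM in Sox2 cKO, a log2 fold change of 0.36 ± 0.11 with an adjusted p of 0.0401 in edgeR. In both paralogue 4 genes Ctrl library 2 was the highest of the Ctrl libraries and came close to the Sox2 cKO libraries.

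Hoxb2 (chromosome 11, 96350525 to 96354012), which acts in hindbrain patterning, was the lowest of the genes called, at 1.75, 1.29 and 1.40 CPM in Ctrl and 2.11, 2.52 and 2.57 CPM in Sox2 cKO. Its counts were between 29 and 74, the groups did not overlap, and the log2 fold change was 0.70 ± 0.23 with an adjusted p of 0.0471 in edgeR. DESeq2 did not call it (adjusted p = 0.0909). Exons of Hoxb3os on the other strand cover 27.3% of its exon bases, and reads of both cannot be told apart if strand was ignored in the counting.

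Hoxa6, on chromosome 6 from 52206288 to 52208722, fell. It was at 10.1, 12.5 and 11.5 CPM in Ctrl and at 4.79, 8.56 and 7.25 CPM in Sox2 cKO, so library 1 was the lowest and no Sox2 cKO library reached a Ctrl library. The log2 fold change was -0.72 ± 0.20 with an adjusted p of 0.0265 in edgeR. With a recovered length of 874 bases it was the shortest of the members with a count. Hoxb9 (chromosome 11, 96271457 to 96276595), which helps to set the thoracic identity of motor neurons, was at 80.3, 68.6 and 82.4 CPM in Ctrl and at 57.7, 59.9 and 65.6 CPM in Sox2 cKO. The groups did not overlap, and the log2 fold change was -0.34 ± 0.09 with an adjusted p of 0.0270 in edgeR.

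**Figure D2:**
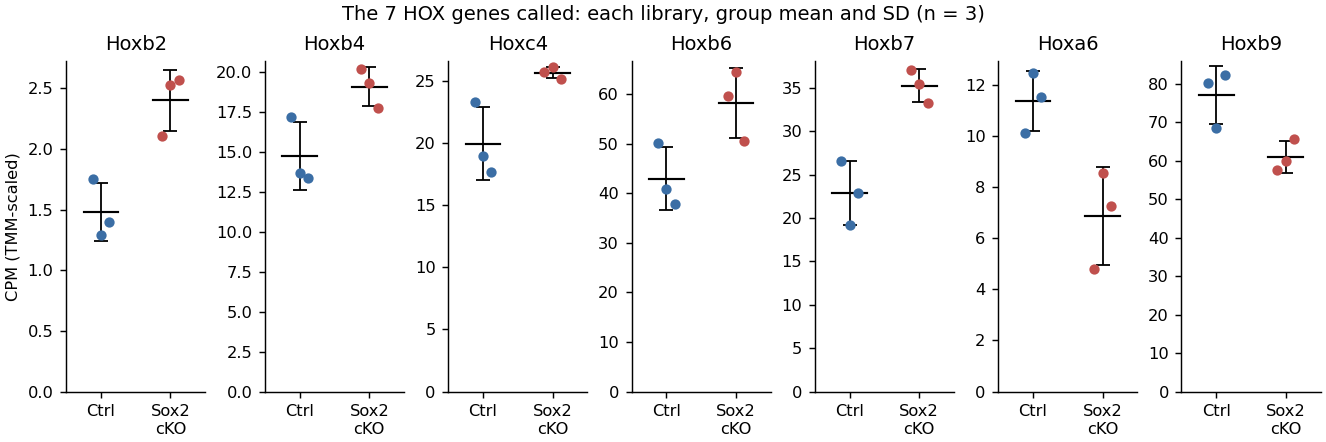
CPM of the 7 HOX genes called, 1 panel each, with a point for each library, a line at the group mean and bars for the SD (n = 3 a group); axes start at 0. The 5 genes on the left are higher in every Sox2 cKO library than in every Ctrl library, and Hoxa6 and Hoxb9 are lower.

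When 1 library was left out in turn, edgeR called between 0 and 8 HOX genes and DESeq2 between 2 and 7. The 8 were called without Ctrl library 2, which lay closer to the Sox2 cKO libraries than the other Ctrl libraries did. Without Ctrl library 4 or without Sox2 cKO library 1, edgeR called 0 HOX genes (7 and 10 had an unadjusted p under 0.05) and 26 and 8 genes in all, and DESeq2 called 2 HOX genes in each case. Hoxb7 passed in 4 of the 6 edgeR fits, Hoxa6, Hoxb6 and Hoxb9 in 2, and Hoxb2, Hoxb4 and Hoxc4 in 1. The direction of all 7 genes was kept in every one of these fits.

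By paralogue number, the log2 fold changes were mostly above 0 at the anterior end and had medians close to 0 at paralogues 8 and 9. All 7 tested members of paralogues 1 to 3 had a value above 0, with a median of 0.39, and Hoxb2 alone of them was called. Among the 15 members of paralogues 4 to 8 the median was 0.18, with 4 higher and 1 lower. The members of paralogue 8, which carry the largest share of the signal, were not called: Hoxb8 had a log2 fold change of 0.04 ± 0.08, Hoxc8 of -0.05 ± 0.12 and Hoxd8 of -0.03 ± 0.08 (SE). The 4 members of paralogue 9 had a median of 0.04 and differed among themselves, from -0.34 in Hoxb9 to 0.25 ± 0.14 in Hoxa9, which was not called. Hoxa2, the highest paralogue 2 gene, was not called at 0.41 ± 0.20 although every Sox2 cKO library was above every Ctrl library. The genes of highest mean level of paralogues 1, 3, 5 and 7 were not called either, with 0.39 ± 0.24 for Hoxd1, 0.22 ± 0.13 for Hoxb3, 0.18 ± 0.10 for Hoxa5 and -0.15 ± 0.08 for Hoxa7. Of the exon bases of Hoxb3, 52.9% lie opposite exons of Hoxb3os, and of those of Hoxa7, 20.4% opposite exons of Hoxaas3.

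In all, 22 of the 28 tested members, or 78.6%, had a log2 fold change above 0, against 52.0% of all genes tested. The median was 0.20 over the HOX genes and 0.02 over all genes tested. The members were read in the same 6 libraries and lie next to each other in 4 clusters, so they are not independent observations. The median SD of log2 CPM within groups was 0.159 for the HOX genes and 0.154 for all genes tested.

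**Figure D3:**
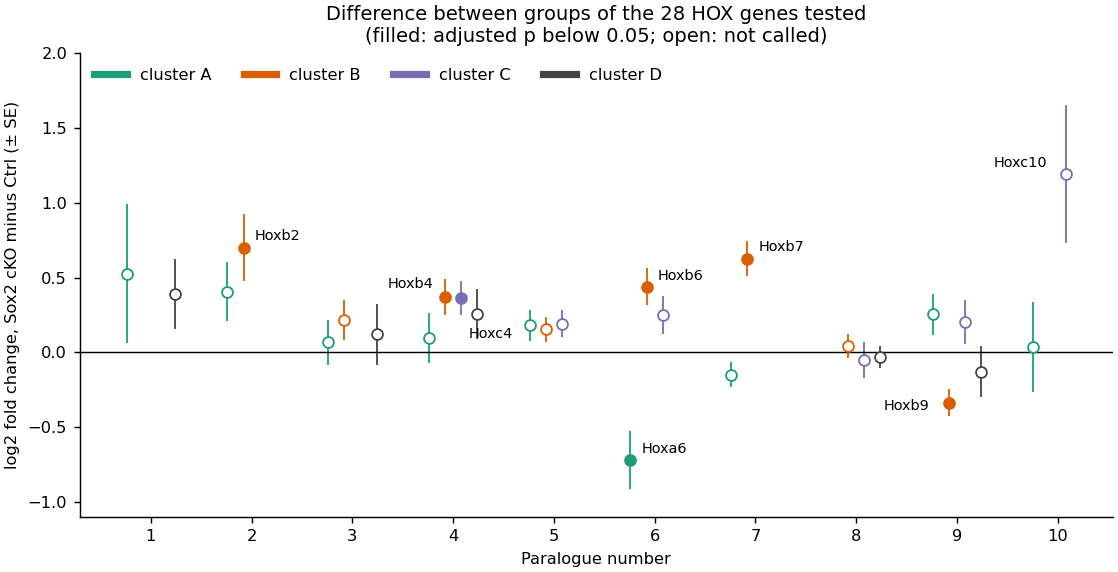
log2 fold change of the 28 HOX genes tested (vertical axis, bars are the SE of the edgeR fit) against paralogue number, coloured by cluster; filled points have an adjusted p below 0.05. The genes higher in Sox2 cKO have paralogue numbers 2, 4, 6 and 7, paralogue 8 lies close to 0, and Hoxa6 and Hoxb9 are lower.

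Cluster B held 5 of the 7 genes called, out of 8 tested, and clusters A and C held 1 each, out of 9 and 6. These are 62.5%, 11.1% and 16.7% of those tested, against 24.6% of all genes tested. With a correction for gene length, described below, clusters B and A held 2 genes called each and clusters C and D held 0. That is 25.0% for cluster B and 22.2% for cluster A, against 13.1% of all genes. None of the 5 tested genes of cluster D was called by edgeR, and none had an unadjusted p under 0.05. DESeq2 called 0 of them too, with adjusted p between 0.422 (Hoxd4) and 0.824 (Hoxd3). Hoxb7 and Hoxb9, on either side of Hoxb8, moved in opposite directions, and their ratio was taken within each library, where scaling between libraries has no part. This pair and those that follow were chosen after the values were seen. The ratio of Hoxb7 to Hoxb9 in FPKM was 0.658, 0.558 and 0.552 in the Ctrl group (libraries 2, 4, 6) and 1.28, 1.18 and 1.01 in the Sox2 cKO group (libraries 1, 3, 5). In each Ctrl library Hoxb9 was thus above Hoxb7 per length, and in each Sox2 cKO library Hoxb7 was above Hoxb9, though library 5 was near a tie at 1.01. Hoxb7 and Hoxb9 differ in length, at 1291 and 2574 bases. A trend with gene length can therefore enter their ratio, as it can those of Hoxa6 below. With the length correction the log2 fold changes were 0.34 for Hoxb7 and -0.43 for Hoxb9, and the ratio was not taken again. In cluster A, the ratio of Hoxa6 to Hoxa5 was 0.634, 0.842 and 0.674 in Ctrl and 0.259, 0.432 and 0.455 in Sox2 cKO, with no overlap. The ratio of Hoxa6 to its other neighbour Hoxa7 was 0.314, 0.382 and 0.371 in Ctrl and 0.173, 0.319 and 0.227 in Sox2 cKO, and there the groups overlapped, as they did in the ratio of Hoxa5 to Hoxa7.

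The composition of the HOX signal by paralogue number was then compared by class. The share of paralogues 1 to 3 in all HOX FPKM was 2.12% ± 0.0895 in Ctrl and 2.43% ± 0.12 in Sox2 cKO (SD, n = 3). The difference of 0.312 percentage points was 0.0553 without the members that share exon bases with another gene. Of paralogues 1 to 3 that leaves only Hoxb1 and Hoxd1. The class itself is then far smaller, so both differences cannot be compared in size. The share of paralogues 4 to 8 was 88.3% ± 0.429 in Ctrl and 89.6% ± 0.351 in Sox2 cKO. This difference of 1.32 percentage points turned to -0.415 without the highest member of each class. Paralogue 9 had 9.44%, 8.96% and 9.95% in Ctrl and 7.46%, 7.55% and 8.27% in Sox2 cKO. Its difference of -1.69 percentage points was 0.0538 without the highest member of each class, which here is Hoxb9. Paralogues 10 to 13 had 0.151% ± 0.024 in Ctrl and 0.216% ± 0.032 in Sox2 cKO, a difference of 0.0652 percentage points. This difference was 0.00120 without the members that share exon bases. That setting leaves out Hoxc10, and Hoxa10 then holds nearly all of the class. In each of these 4 classes the libraries of the groups did not overlap, but for paralogues 10 to 13 this rests on a few reads, since the share of paralogue 10 alone overlapped (0.177% in Ctrl library 6 and 0.166% in Sox2 cKO library 3). An exact permutation test of 3 against 3 libraries cannot give a two-sided p below 0.1.

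A mean paralogue number, weighted by FPKM, summarises the same values. It was 7.08, 7.07 and 7.14 in Ctrl and 6.99, 6.91 and 7.03 in Sox2 cKO, a difference of -0.121 of a paralogue number between the group means (7.10 ± 0.041 and 6.98 ± 0.059, SD, n = 3). The groups did not overlap, and they overlapped when cluster B or the highest member of each class was left out, with differences of -0.0945 and -0.101. Ctrl library 6 was the highest and Sox2 cKO library 3 the lowest, and all 6 lay close to paralogue number 7.

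**Figure D4:**
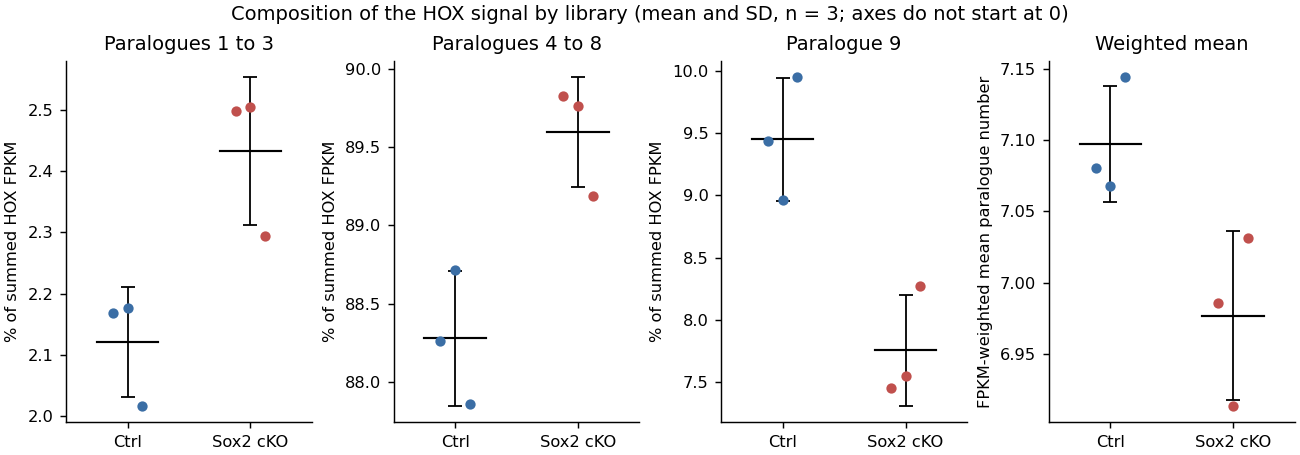
Share of paralogues 1 to 3, 4 to 8 and 9 in the summed HOX FPKM, and the FPKM-weighted mean paralogue number, in each library; lines and bars are the group mean and SD (n = 3), and the axes do not start at 0. Paralogue 9 has the smaller share and the mean number is lower in each Sox2 cKO library, within a range of 6.91 to 7.14.

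The HOX genes tested were short, with a median length of 2312.5 bases as recovered from the files, against 3060 bases for all genes tested. After the log2 values of each library had been corrected for their trend with gene length by a lowess curve, the median log2 fold change of the HOX genes was 0.09, with 17 of 28 above 0. Then 4 members were called, or 14.3% of those tested, against 13.1% of all genes. Hoxb7 (0.34, adjusted p = 0.0370) stayed higher, Hoxa6 (-1.08, adjusted p = 0.0218) and Hoxb9 (-0.43, adjusted p = 0.0204) stayed lower, and Hoxa7 (-0.31, adjusted p = 0.0370) was added. Hoxb2, Hoxb4, Hoxb6 and Hoxc4 kept values above 0, between 0.22 and 0.68, and were not called. Whether the length trend is technical was not tested.

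**Figure D5:**
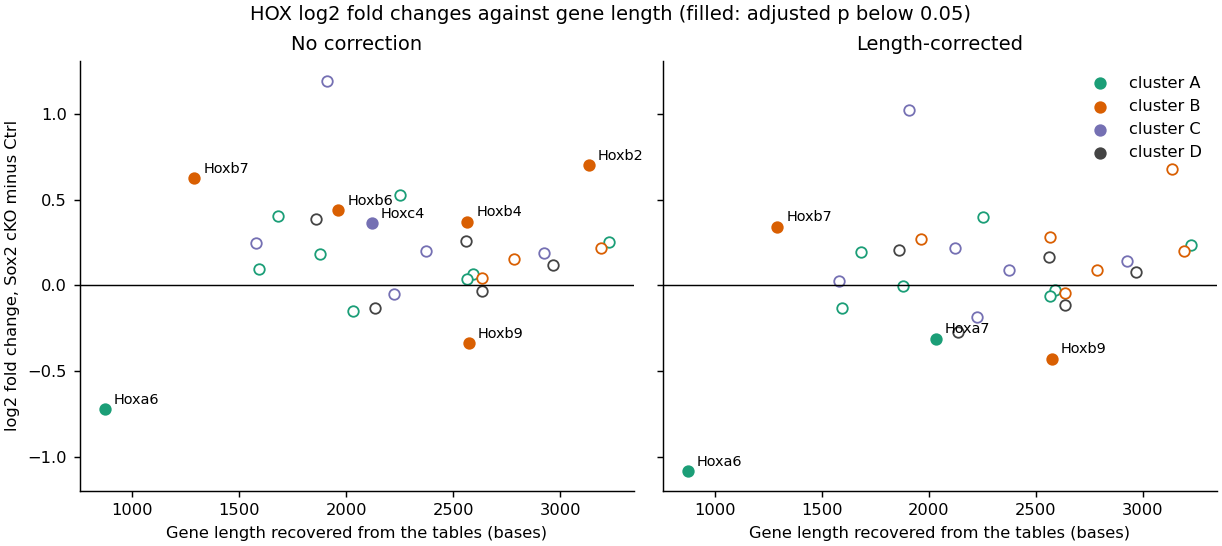
log2 fold change of the 28 HOX genes tested (vertical axis) against gene length in bases (horizontal axis), without correction on the left and after the length correction on the right; colours are clusters and filled points have an adjusted p below 0.05. After correction Hoxb7, Hoxa6, Hoxa7 and Hoxb9 are called, and the median of the 28 genes moves from 0.20 to 0.09.

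The largest log2 fold change among the members was that of Hoxc10, a gene of the lumbar cord and hindlimb, at 1.19 ± 0.46 (SE), and it was not called (adjusted p = 0.0823 in edgeR). Ctrl libraries 2, 4 and 6 held 8, 6 and 11 counts, and Sox2 cKO libraries 1, 3 and 5 held 14, 18 and 36. Without library 5 the log2 fold change was 0.70. Library 5 also had the highest sum of the 5 skeletal muscle markers, 57.3 FPKM, with 26.2 FPKM in library 1 and between 4.25 and 10.6 FPKM in the other 4 libraries. The part of other tissue in the Hoxc10 counts was not tested. Hoxc5 shares exon bases with Hoxc10 on the same strand, which are 8.70% of those of Hoxc10. Hoxa10, the other paralogue 10 gene tested, had between 20 and 32 counts in each library and a log2 fold change of 0.04 ± 0.30.

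The clusters also hold noncoding genes, which lie between or opposite the HOX genes. Of 20 such genes, 12 were tested and 2 were called, both higher in Sox2 cKO, which is 16.7% of those tested against 24.6% of all genes. Hotairm1, at the anterior end of cluster A, was at 10.6, 7.65 and 9.17 CPM in Ctrl and 13.6, 17.3 and 13.1 CPM in Sox2 cKO (log2 fold change 0.69 ± 0.16, adjusted p = 0.0166 in edgeR). Haglr, next to Hoxd1, was at 5.02, 3.82 and 3.77 CPM in Ctrl and 7.42, 6.11 and 5.63 CPM in Sox2 cKO (0.60 ± 0.18, adjusted p = 0.0369). In both genes the groups did not overlap. After the length correction edgeR called 0 of the 12 (1 had an unadjusted p under 0.05), while DESeq2 without it called 2. Hottip, at the posterior end of cluster A, and Hotair, between Hoxc11 and Hoxc12, had no count in any library, as had their neighbours Hoxa13, Hoxc11 and Hoxc12. The lowest value among the 12 was -0.30 for Hoxaas3, which was not called.

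Among 57 genes that act with or on HOX genes, 52 were tested, and 4 rose and 7 fell, which is 21.2% of those tested against 24.6% of all genes. The median log2 fold change was -0.01. Of the 9 TALE cofactors, Meis3, at 16.2, 13.5 and 15.1 CPM in Ctrl and 20.99, 20.5 and 18.7 CPM in Sox2 cKO, rose by 0.43 ± 0.11 on the log2 scale (adjusted p = 0.0212 in edgeR). Pbx4, at 0.44, was the highest value of the cofactors and was not called.

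Of the 16 upstream and retinoid genes 11 were tested. Gdf11, a secreted factor that sets the thoracic to lumbar transition in the embryo, fell from 68.6 ± 9.57 to 48.5 ± 4.30 CPM (SD, n = 3), a log2 fold change of -0.50 ± 0.11 with an adjusted p of 0.0158 in edgeR. Aldh1a2, which makes retinoic acid, had the largest value of this list, 0.38 ± 0.35, and was not called. It was at 6.57 CPM in Ctrl library 6, which also had the lowest sum of meningeal markers, and between 21.3 and 26.05 CPM in the other 5 libraries. The Cdx genes, embryonic activators of HOX clusters, had no count (Cdx1 and Cdx4) or were too low to test (Cdx2).

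The 22 Polycomb genes, which keep HOX genes silent outside their domain, held 2 that rose and 3 that fell. Phf1 (0.64, adjusted p = 0.0126 in edgeR) and Ring1 (0.50, adjusted p = 0.0208) were higher in every Sox2 cKO library, and Cbx6 (-0.37, adjusted p = 0.0448), Phc1 (-0.25, adjusted p = 0.0436) and Phc3 (-0.41, adjusted p = 0.0290) were lower in each. Phf19, at -0.48, was the lowest value and was not called. The catalytic subunits Ezh1 (-0.19, adjusted p = 0.0826) and Ezh2 (0.32, adjusted p = 0.159) were not called. Of the 8 trithorax genes and demethylases, which act against Polycomb, Kmt2a (-0.51, adjusted p = 0.0212) and Kdm6b (-0.49, adjusted p = 0.0169) fell, and Wdr5 had the highest value, 0.28, without a call. Of the 2 further partners, Gmnn, which binds HOX proteins and Polycomb, rose (0.64, adjusted p = 0.0350), and Ctcf had a value of -0.20. After the length correction Gdf11, Phf1 and Ring1 were still called, Meis1 was added, and Kmt2a and Phc3 lay at -0.01 and -0.02.

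Markers of the cell types in the cord were read beside these values. The 7 astrocyte markers summed to between 1376 and 1776 FPKM in Ctrl and 875 and 969 FPKM in Sox2 cKO. Of these, 5 fell, or 71.4%, against 12.4% of all genes tested that were called lower. After the length correction 2 astrocyte markers, Gfap and Aqp4, were still called, or 28.6%, against 13.1% of all genes called in either direction. All 7 kept log2 fold changes below 0. The 6 neuron markers summed to between 2189 and 2389 FPKM in Ctrl and 2402 and 2472 FPKM in Sox2 cKO, but 4 had log2 fold changes above 0 and 2 below. Nefm, the highest, was lower in every Sox2 cKO library (mean 1157 FPKM in Ctrl and 1021 FPKM in Sox2 cKO, -0.28). Snap25 was higher in each (421 and 574 FPKM, 0.35), and neither was called. Of the 18 neuron, interneuron and motor neuron markers, Stmn2 (0.30) and Tlx3 (0.81) rose and Slc18a3 (-0.46) fell. That is 1 marker called in each of the 3 lists (of 6, 7 and 5 tested), against 24.6% of all genes tested. The 5 Schwann cell markers ran from 9.09 to 29.2 FPKM in Ctrl and 21.8 to 34.1 FPKM in Sox2 cKO, and the 6 meningeal markers from 31.4 to 85.1 and 67.7 to 87.5 FPKM, with Ctrl library 6 the lowest in both. The sensory ganglion sum, 11.9 to 37.9 FPKM in Ctrl and 50.2 to 86.5 FPKM in Sox2 cKO, was mostly Calca, which motor neurons also express, while Scn10a and Mrgprd were highest in Ctrl library 4 at 0.59 and 0.23 FPKM. The part of these cell types in the HOX values was not tested.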

How the data were processed

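Poly(A) RNA of the spinal cord of 3 Sox2 cKO and 3 Ctrl mice was sequenced as single-end reads. The authors aligned the reads to mm10 with STAR 2.5 and counted them on genes with HTSeq 0.6.1, and they deposited these counts without normalization. The strand setting of the counting is not given in the sources used here. A second table deposited by the authors gives FPKM: dividing the counts by these values and by the library total gave gene lengths that were whole numbers (within 0.05) for 24442 of 24442 genes with a count.

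The numbered columns match no sample name. Libraries 2, 4 and 6 were taken as Ctrl and 1, 3 and 5 as Sox2 cKO, after the mouse numbers of a blot in the study. Group means of normalized counts matched those in the study's list of differential genes within 0.1% for 1999 of 1999 genes, and for 0 genes with the groups exchanged. Columns of other samples numbered 0. No library was a copy of another (chi-square per degree of freedom 7.17 to 90.1 for the 15 pairs). The 3 libraries of a group are labelled as replicates. The p-values relate the group difference to the spread between these libraries, which the fits moderate across genes. Per the labels, RNA had an integrity number above 6.8, and the study gives a higher minimum.

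The test of the counts was edgeR 4.0.16 in R 4.3.3 (filterByExpr, TMM, quasi-likelihood test, no covariate, Benjamini-Hochberg adjustment at 0.05 over the 16137 genes tested). Alternatives were DESeq2 1.42.0, upper quartile and RLE scaling, no filter, at least 10 counts in every library, limma 3.58.1 on log2(FPKM + 1) and log2(FPKM + 0.1) with a mean of at least 0.5 FPKM, lowess corrections (span 0.3) for length or GC content, and leaving out each library. The fits were tested on simulated data, except for the GC correction and the fits that leave out a library. Gene positions are those of GENCODE M21 (GRCm38, the build of mm10), which matched 34490 of 35275 identifiers; noncoding genes lay within 10 kb of a cluster.

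Genes named are the HOX genes called, the highest of each paralogue number and cluster, the largest and smallest fold changes, and the same of each other list; others were chosen after their values were seen. The members and lists were chosen with earlier results of these data known. The study's fold changes and p-values were not used. Values of some genes are not reported here.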

Additional observations from a re-analysis of the deposited data

How the results depend on the processing

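The direction of each HOX gene called was kept under all alternatives run. With the length correction 2109 genes in all were called in place of 3970, 4 HOX genes in place of 7, 4 of the genes that act with or on HOX genes in place of 11, and 0 noncoding genes in place of 2, and the median log2 fold change of the HOX genes was 0.088 in place of 0.196. The GC correction left 4 HOX genes called, and limma on log2(FPKM + 0.1) gave a median of 0.28. The other scalings, filters and tools gave 6 or 7 HOX genes. Leaving out 1 library, with DESeq2 added after the edgeR counts were seen, gave between 8 and 6119 genes, 0 and 8 HOX genes, 0 and 16 genes that act with or on them, and 0 and 2 noncoding genes. Calls were lost without Ctrl library 4 (0 HOX genes), Sox2 cKO library 1 (0), Ctrl library 6 (1), Sox2 cKO library 3 (2) or Sox2 cKO library 5 (3). Without Ctrl library 2, 8 HOX genes and 6119 genes in all were called. The cause of these differences in the number of calls was not tested. In the fits without 1 library the median of the HOX genes stayed between 0.15 and 0.22. The difference in mean paralogue number stayed between -0.0890 and -0.148 there. With each gene weighted alike, the log2 difference changed by -0.0273 for each paralogue number, and by -0.0458 without Hoxc10. Without members that share exon bases, chosen after seeing the data, the share differences were 0.0553 percentage points for paralogues 1 to 3, 1.99 for 4 to 8 and 0.00120 for 10 to 13. For paralogues 1 to 3 and 10 to 13 few members with counts were left. Their differences cannot be compared in size with those of the whole classes. Without the highest member of each class the share differences were -0.415 for paralogues 4 to 8 and 0.0538 for paralogue 9. No paired analysis was possible because the deposited columns carry no replicate number of the labels. Genes with few counts limit the posterior end, where the groups could not be compared beyond Hoxa10 and Hoxc10.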
